A study of Mus musculus with 2 samples.

Results

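Chemokines and chemokine receptors were examined in the dorsal skin of Mpzl3 null mice. The set was defined by gene symbol and held every gene named by a single-gene probe whose symbol is that of a CC or CXC chemokine or receptor, together with Xcl1, Xcr1, Cx3cl1 and Cx3cr1. It comprised 51 of the 18855 genes named on the arrays, 34 ligands and 17 receptors, read by 66 probes. The study compared skin RNA of Mpzl3 −/− pups (null) with that of their +/+ littermates (wild type) on 2 Agilent whole-genome arrays with 2 dyes each, 1 for pups 1 day old (P1) and 1 for pups 9 days old (P9). Mpzl3 is a membrane protein of the immunoglobulin superfamily, and the title of the series ties its loss to skin disease resembling seborrheic dermatitis. Cy5 labelled the null and Cy3 the wild-type RNA on each array by the labels, so dye and genotype cannot be told apart. The sources used here do not state how the null allele was made or how many pups gave RNA to a channel.

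Chemokines are small secreted proteins that guide leukocytes along gradients by binding receptors coupled to G proteins on the cell surface. The inflammatory members are made on demand by keratinocytes, fibroblasts, endothelium and resident macrophages, and different members draw neutrophils, monocytes, eosinophils or subsets of T cells. Homeostatic members are made without injury and place lymphocytes and dendritic cells in tissues and lymphoid organs. Ligands are largely made by the tissue and receptors by the leukocytes that respond. In RNA of whole skin, fewer cells of a type and less RNA per cell cannot be told apart.

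All values are the authors' deposited log ratios of null over wild type, read as log2 since their base is not stated, so a value above 0 means a higher signal in null, and 1 log2 unit is 2-fold. A gene's value is the mean of its probes. Each age had a single array, which gives no replicates and allows no test. Precision is limited by the number of arrays. The spread between probes of the same gene, pooled over all genes with at least 2 probes, was an SD of 0.36 log2 on each array, or 1.28-fold, and it does not cover differences between animals. Of the members, 36 had 1 probe and 15 had 2. P1 values were blank for Ccl28, Cxcl3, Cxcl15, Xcl1 and Ccr8, and the P9 value for Cxcl2, which left 46 members at P1, 50 at P9 and 45 at both ages. A member is called past 2-fold where its mean was at least 1 log2 unit in size and its probes had 1 sign.

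Direction was taken from the channel labels alone. The array titles name their RNAs by letters, A before B at P1 but B before A at P9, and do not say which letter is null. The 2 arrays correlated with Pearson's r of 0.67 across 16647 genes, which are not independent and share the dye orientation, so this does not settle the direction. Were one array to run the other way, members given below with opposite signs at P1 and P9 would have the same sign.

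The only probe of the targeted gene read −0.21 at P1 and 0.20 at P9, each smaller than the probe SD. It does not check the genotype, because the sources used here do not place it relative to the deleted part. Sex-linked transcripts differed between the channels too. Xist, the RNA that silences one X chromosome in female cells, had values of −1.03 at P1 (SD 0.77 over 4 probes) and 3.67 at P9 (SD 1.05 over 4 probes). The Y-linked gene Uty was at 0.33 at P1 (SD 0.57 over 2 probes) and −1.99 at P9 (SD 1.46 over 4 probes). Eif2s3y, also Y-linked, was blank at P1 and at −3.98 at P9. The signs of Xist and of Uty are opposite at the ages, as in the main pattern below. The P1 value of Uty was smaller than the SD of its probes, so its sign at P1 is uncertain. The part of these differences in the members' values was not tested. Of the members only Cxcr3 is X-linked, and it lay at −0.02 at P1 and −0.03 at P9. Keratinocyte markers were higher and those of dermal fibroblasts lower in null at both ages by their medians, which were 0.24 (5 genes) and −0.41 (6 genes) at P1 and 0.59 (4 genes) and −0.30 (6 genes) at P9. Their part in the results below was not tested.

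The clearest pattern was a difference between the ages in a group of inflammatory chemokines. Ccl2, Ccl7, Ccl8 and Ccl12, the monocyte chemoattractants, together with Ccl3, Cxcl5 and Ccl20, were below 0 in null skin at P1 and above 0 at P9. Ccl20, which draws dendritic cells and T helper 17 cells, was 3.50-fold higher in null skin at P9, the highest value of any member on either array. At P1 the members furthest from 0 were instead the monocyte receptors Ccr1 and Ccr2, lower in null skin by 2.46-fold and 2.04-fold. The T cell attractant Cxcl10, induced by interferons, was below 0 at both ages.

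Promoter sequences of 5 ligands past 1.5-fold at P9 are shown for orientation. They are the 250 bases before the transcription start from RefSeq (GRCm38.p6), 5′ to 3′ on the coding strand. Ccl20, Ccl12, Ccl8 and Cxcl3 had P9 values above 0, and Cxcl10 stands for the ligands below 0. Cxcl3 was blank at P1, so whether its sign differed between the ages is not known. Capitals mark matches on either strand to the NF-κB consensus, the AP-1 site (TGANTCA), the interferon-stimulated response element (GAAA, any 2 bases, GAAA) and the TATA box (TATAAA).
Ccl20, chr1:83116516-83116765, + strand: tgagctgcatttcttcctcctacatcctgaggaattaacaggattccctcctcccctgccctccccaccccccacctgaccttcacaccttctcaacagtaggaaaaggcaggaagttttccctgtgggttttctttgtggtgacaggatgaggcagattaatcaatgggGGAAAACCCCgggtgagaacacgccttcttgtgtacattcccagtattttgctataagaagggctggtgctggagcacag
Ccl12, chr11:82101595-82101844, + strand: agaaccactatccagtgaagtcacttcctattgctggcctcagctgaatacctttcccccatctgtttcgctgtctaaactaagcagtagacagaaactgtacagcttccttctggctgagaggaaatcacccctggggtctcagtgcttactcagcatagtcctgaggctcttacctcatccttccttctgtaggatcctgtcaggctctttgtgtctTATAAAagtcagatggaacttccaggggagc
Ccl8, chr11:82114935-82115184, + strand: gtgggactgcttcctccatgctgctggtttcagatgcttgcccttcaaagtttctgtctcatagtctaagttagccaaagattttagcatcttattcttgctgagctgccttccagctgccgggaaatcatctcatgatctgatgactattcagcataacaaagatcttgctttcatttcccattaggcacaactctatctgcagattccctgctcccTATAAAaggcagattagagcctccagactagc
Cxcl3, chr5:90785851-90786100, + strand: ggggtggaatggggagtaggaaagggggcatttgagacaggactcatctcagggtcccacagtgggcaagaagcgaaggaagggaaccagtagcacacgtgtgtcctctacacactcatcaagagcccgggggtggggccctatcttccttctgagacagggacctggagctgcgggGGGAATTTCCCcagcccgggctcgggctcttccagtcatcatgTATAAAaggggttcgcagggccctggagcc
Cxcl10, chr5:92348890-92349139, − strand: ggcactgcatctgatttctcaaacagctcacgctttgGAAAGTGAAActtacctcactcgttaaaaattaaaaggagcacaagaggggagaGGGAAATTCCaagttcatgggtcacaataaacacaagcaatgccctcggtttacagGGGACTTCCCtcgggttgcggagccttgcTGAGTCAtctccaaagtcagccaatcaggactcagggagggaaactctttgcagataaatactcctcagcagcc
The NF-κB match of Ccl20 began 80 bases before the start. Cxcl3 had 2 such matches that overlap on opposite strands, the farther one beginning 73 bases before the start. Ccl12 and Ccl8, neighbours on chromosome 11, held only a TATA box, beginning 31 and 32 bases before the start. Cxcl10 held 2 NF-κB matches, 1 AP-1 match and 1 response element. RefSeq promoters were found for 39 of the 51 members, with 43 start sites. The NF-κB consensus was present in 8 of these 43 windows and in 3.90% of all 32851 promoter windows, the response element in 3 of 43 and 2.98%, the AP-1 site in 5 of 43 and 6.75%, and the TATA box in 12 of 43 and 12.37%. The windows with an NF-κB match belonged to Ccl9, Ccl20, Cxcl1, Cxcl2, Cxcl3, Cxcl10, Ccr3 and Ccr6. A match is a run of letters and does not show binding, and no match speaks only for this window.

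At P1 the question was how null skin differed within a day of birth. Over the 46 members the median log2 ratio was −0.01, against 0.06 over all genes. Past 2-fold, 0 members were higher, where 1.72% of all genes were, and 2 were lower, where 1.17% were. Past 1.5-fold, 1 member was higher (9.08% of all genes) and 4 were lower (6.92%), or 2.17% and 8.70% of the members. The 1.5-fold share of lower members was thus close to that of all genes. The median was −0.14 over ligands, 11 of 30 of them above 0, and 0.13 over receptors, 11 of 16 above 0.

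At P9, the later age, the median over 50 members was 0.21, against 0.02 over all genes. Past 2-fold, 3 members were higher, where 2.24% of all genes were, and 0 were lower, where 0.465% were. Past 1.5-fold, 14 members were higher (6.17% of all genes) and 1 was lower (3.30%). The share of higher members past 1.5-fold was 28.00%. The median was 0.22 over ligands, 23 of 33 of them above 0, and 0.03 over receptors, 9 of 17 above 0. Of the 14 higher members 10 were ligands, 10 of 33 ligands with a value and 4 of 17 receptors.

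**Figure D1:**
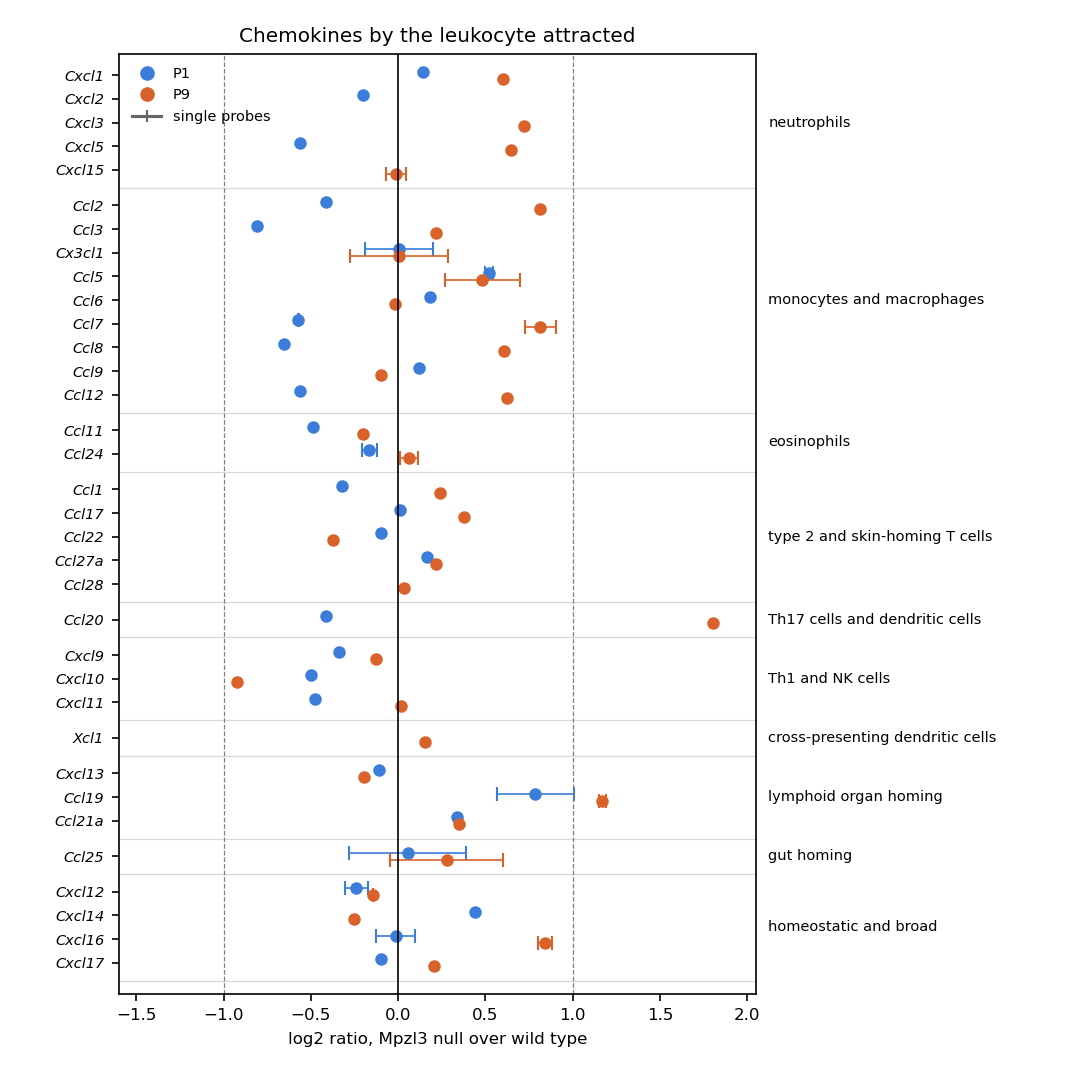
Log2 ratios (x axis, Mpzl3 null over wild type) of the 34 chemokines (y axis), grouped by the leukocyte each attracts. Blue points are P1 and orange points P9, bars join the single probes of genes with 2, and dashed lines mark 2-fold. At P9 the monocyte attractants Ccl2, Ccl7, Ccl8 and Ccl12 lie between 0.61 and 0.82 and at P1 between −0.65 and −0.41.

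Among the member ligands of neutrophils, those of the receptor Cxcr2 with a P9 value were above 0. Cxcl3 was at 0.72 and blank at P1. Cxcl5, made by epithelial cells, was at −0.56 at P1 and 0.65 at P9. Cxcl1, the mouse counterpart of the human GRO chemokines, was at 0.14 at P1 and 0.60 at P9, and Cxcl2 was at −0.20 at P1 and blank at P9. All 3 Cxcr2 ligands of the set with a P9 value were past 1.5-fold, and each rests on 1 probe. Ppbp, a Cxcr2 ligand outside the symbol rule, was at −0.50 at P1 and only 0.05 at P9. Cxcl15, a lung chemokine, was at −0.01 at P9. The receptor Cxcr2, carried by neutrophils, was at 0.20 at P1 (probes 0.15 and 0.26) and 0.63 at P9 (probes 0.33 and 0.94). Cxcr2, Cxcl1, Cxcl3 and Cxcl5 thus lay on the same side of 0 at P9, but the lower Cxcr2 probe was within the probe SD.

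Other neutrophil markers did not all go the same way. Of the 10 markers listed, 8 had a value at P1 and 9 at P9, with medians of 0.22 and 0.29. S100a9, a calprotectin subunit that keratinocytes also make, was at −0.59 at P1 and 2.04 at P9, from 1 probe. The other subunit, S100a8, was at −0.69 and 0.33, so its P9 value was within the probe SD. Camp, an antimicrobial granule protein, was at 0.07 and −1.06. The granule genes Elane and Ngp were at 0.63 and 0.59 at P1 and at 0.11 and 0.31 at P9. Csf3r, the receptor of a neutrophil growth factor, was at 0.39 and 0.29. The part of neutrophil number in the Cxcr2 values was not tested.

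Chemokines of monocytes and macrophages held the most members, and several of its ligands differed between the ages by over 1 log2 unit. Ccl2, the main ligand of Ccr2, was at −0.41 at P1 and 0.82 at P9, where null was 1.76-fold higher. Ccl7 was measured by 2 probes, which read −0.57 and −0.57 at P1 and 0.72 and 0.90 at P9. Ccl12 was at −0.56 at P1 and 0.62 at P9. Ccl8, which in mice also binds Ccr8, was at −0.65 at P1 and 0.61 at P9. These 4 genes spanned only 0.24 log2 at P1 and 0.21 at P9, less than the probe SD on each array. These related genes have similar sequences and cross-hybridisation was not tested, so the 4 are not independent measurements.

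The other ligands of this group were less uniform. Ccl3, a macrophage inflammatory protein, had the lowest P1 value of any ligand at −0.81 and was at 0.22 at P9. Ccl5, which also draws T cells, was above 0 at both ages, at 0.52 at P1 (probes 0.50 and 0.55) and 0.48 at P9 (probes 0.27 and 0.70). Ccl6 and Ccl9 lay within 0.20 of 0 on both arrays. Over all 9 monocyte and macrophage ligands the median was −0.41 at P1 and 0.48 at P9, and the median difference of P9 minus P1 was 1.02, against −0.01 over all genes.

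Monocyte receptors did not all share the sign of their ligands at P9. Their differences of P9 minus P1 were nevertheless above 0 for all 3, at 1.23 for Ccr1, 0.61 for Ccr2 and 0.91 for Cx3cr1. Ccr2, which brings monocytes out of the bone marrow, was at −1.03 at P1 (probes −1.30 and −0.76) and −0.42 at P9 (probes −0.43 and −0.41). At P9 it was thus below 0 while its ligands Ccl2, Ccl7 and Ccl12 were above 0, and at P1 ligands and receptor were all below 0. Ccr1, which binds Ccl3 and Ccl5, was at −1.30 at P1 and −0.07 at P9, from 1 probe. Cx3cr1, the receptor of resident macrophages and patrolling monocytes, was past 2-fold at P9 at 1.16, but its probes read 0.41 and 1.92. At P1 it was at 0.26. Its ligand Cx3cl1 was at 0.01 at both ages, with probes of opposite sign on each array. The Cx3cr1 call therefore rests on 1 probe, and the other is within 1.5-fold.

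Markers of macrophages and monocytes, 9 of 10 with a value at each age, had medians of −0.09 at P1 and 0.03 at P9. The lowest at P1 was Adgre1, which encodes F4/80, at −0.76, and it was at −0.21 at P9. The lowest at P9 was Mrc1, the mannose receptor of tissue macrophages, at −0.67, after −0.49 at P1. The highest at both ages was Csf1r, the receptor of a macrophage growth factor, at 0.30 and 0.24. Above 0 were 3 of the 9 at P1 and 5 of the 9 at P9. The part of cell number in the lower Ccr1 and Ccr2 values at P1 was not tested.

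**Figure D2:**
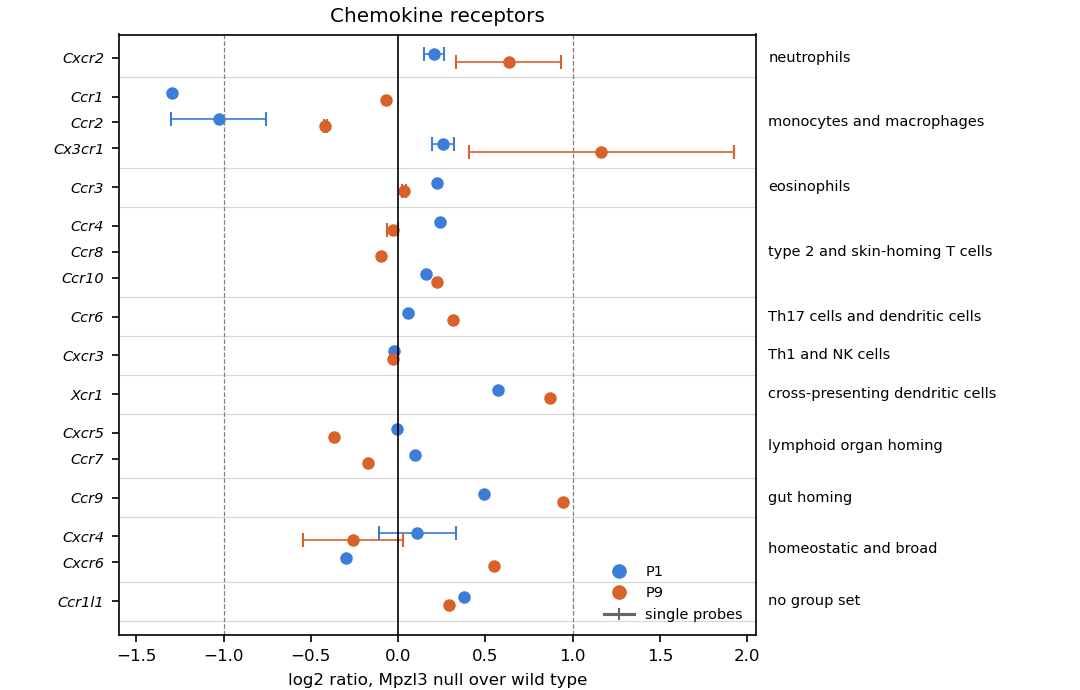
Log2 ratios (x axis, Mpzl3 null over wild type) of the 17 chemokine receptors (y axis), grouped by the leukocyte that carries them. Blue points are P1 and orange points P9, bars join the single probes of genes with 2, and dashed lines mark 2-fold. Ccr1 and Ccr2 lie left of the lower 2-fold line at P1, and the bar of Cx3cr1 at P9 reaches 0.41 to 1.92.

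Ccl20 stood apart from the other ligands at P9. It was at −0.41 at P1 and 1.81 at P9, and the difference of 2.22 log2 was the widest of any member. Keratinocytes are a known source of Ccl20 after cytokine stimulation. Its only classical receptor, Ccr6, found on T helper 17 cells, B cells and some dendritic cells, was at 0.06 at P1 and 0.32 at P9, less than the probe SD. Each gene was read by 1 probe. T cell markers had medians of 0.14 at P1 and 0.03 at P9 over 9 genes, 5 of them above 0 and 4 below at each age. The extremes were Cd4 at 1.37 and the receptor chain gene Trac at −0.40 at P1, and Cd3e at 0.76 and Trac at −0.17 at P9. Markers of Langerhans and dendritic cells had medians of 0.29 (9 genes at P1) and 0.40 (8 genes at P9), led by the integrin gene Itgax at 0.70 and 1.12.

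Ligands of Cxcr3, which interferon-γ induces and which draw T helper 1 and natural killer cells, were below 0 at P1. Cxcl9 was at −0.34, Cxcl10 at −0.50 and Cxcl11 at −0.48. At P9 Cxcl10 was at −0.92, the only member past 1.5-fold in the lower direction, whereas Cxcl9 at −0.13 and Cxcl11 at 0.02 were within the probe SD. The receptor Cxcr3 was near 0 at both ages. Of 12 interferon response genes listed, 11 had a value at each age, with medians of −0.36 at P1 and −0.05 at P9. Past 2-fold at P1 were Ifit1 at −1.86 and Gbp3 at −1.33, both interferon-induced, and at P9 they were at −0.59 and −0.84. Past 1.5-fold at P1 were also Usp18 at −0.59 and Ifit3 at −0.59, which were at −0.34 and 0.04 at P9.

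Ligands of type 2 and skin-homing T cells and of eosinophils stayed within 1.5-fold on both arrays. Ccl17 and Ccl22, ligands of Ccr4 in allergic inflammation, were at 0.38 and −0.37 at P9, so they lay on opposite sides of 0. Ccl27a, the keratinocyte ligand of Ccr10, was at 0.17 at P1 and 0.22 at P9, and Ccr10 at 0.16 and 0.22. Near-identical copies of Ccl27a and Ccl21a exist in the mouse genome, so these probes may read several genes. The eotaxins Ccl11 and Ccl24 were at −0.49 and −0.17 at P1 and −0.20 and 0.06 at P9, and their receptor Ccr3 was at 0.22 and 0.03. Eosinophil markers had medians of 0.28 over 4 genes at P1 and 0.31 over 3 at P9. Among them Prg2, a granule protein, was at 0.79 and −0.14 and Il5ra, a growth factor receptor subunit, at −0.22 and 0.53.

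Homeostatic ligands included the other member called at P9. Ccl19, which guides dendritic cells and T cells to lymph nodes, was at 0.79 at P1 (probes 0.57 and 1.01) and 1.17 at P9 (probes 1.15 and 1.19), 2.25-fold higher in null. Both probes were above 0 on both arrays. Ccl21a, which shares its receptor, was at 0.34 at P1 and 0.35 at P9. That receptor, Ccr7, was at 0.10 and −0.17, and so did not follow Ccl19. Lymphatic endothelial markers had medians of −0.07 and −0.01, over 4 genes at each age. Pseudogene copies related to Ccl19 are listed by RefSeq, and what the probes take up from them was not tested.

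Cxcl16, a membrane-bound ligand that also acts as a scavenger receptor, and its receptor Cxcr6 were both near or below 0 at P1 and above 0 at P9. Cxcl16 was at −0.02 at P1, with probes of opposite sign (−0.13 and 0.10), and at 0.84 at P9 (probes 0.80 and 0.88). Cxcr6, carried by tissue-resident T cells, was at −0.30 at P1 and 0.55 at P9. Ligand and receptor thus differed between the ages the same way, by 0.86 and 0.84. Cxcr6 rests on 1 probe, and values this close cannot be resolved given the probe SD, so their match in amount carries no weight.

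Of the remaining homeostatic genes, Cxcl14, abundant in healthy epidermis, ran the other way at 0.44 at P1 and −0.25 at P9. Its difference of −0.69 was the lowest of any member. Cxcl12 and Cxcr4, which retain stem cells and leukocytes, were at −0.24 and 0.11 at P1 and −0.14 and −0.26 at P9. Xcr1, the receptor of cross-presenting dendritic cells, was at 0.57 at P1 and 0.87 at P9, and its ligand Xcl1 was at 0.15 at P9 and blank at P1. Ccr9, a gut-homing receptor, was at 0.49 and 0.94, while its ligand Ccl25 had probes that disagreed in sign on both arrays (−0.28 and 0.39 at P1, −0.04 and 0.60 at P9). Both receptors were past 1.5-fold at P9 and both ligands were within it. Of the members not described so far, Ccl1, Ccr4, Cxcl13, Cxcl17 and Cxcr5 lay between −0.32 and 0.24 at P1. Ccl28 and Ccr8 were blank at P1. At P9 all of these genes, Ccl28 and Ccr8 included, lay between −0.37 and 0.24. The last member, the receptor Ccr1l1, was at 0.38 at P1 and 0.29 at P9.

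**Figure D3:**
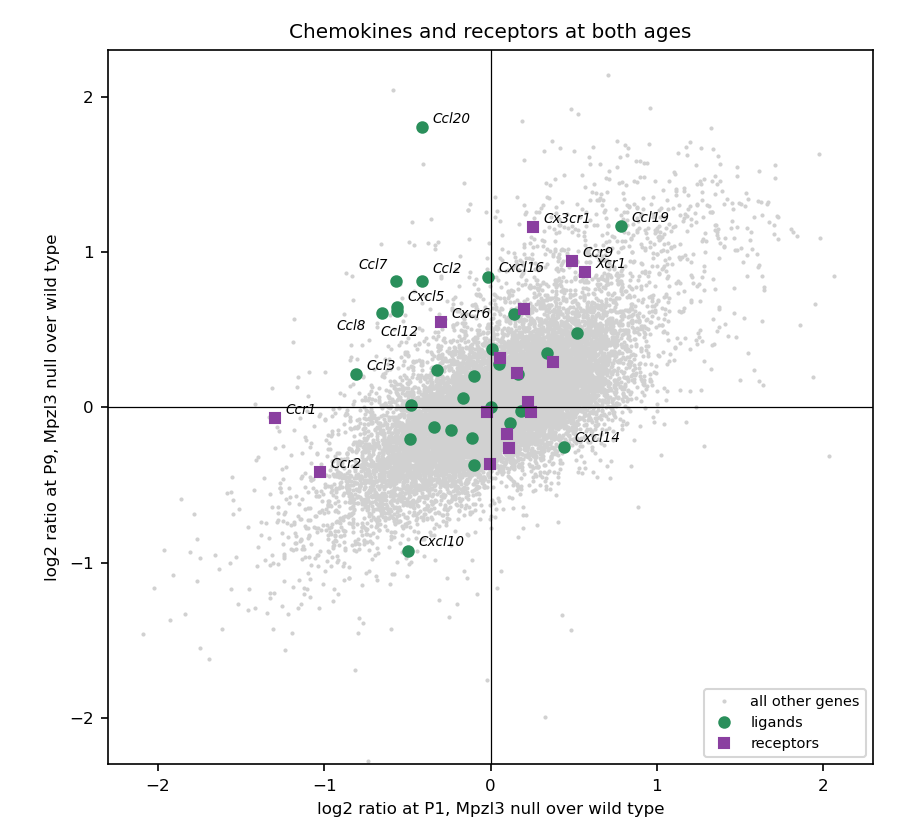
Log2 ratios (Mpzl3 null over wild type) at P1 (x axis) and P9 (y axis) for genes with a value on both arrays. Grey dots are all genes, green circles the ligands and purple squares the receptors, and 1 gene, Xist, lies beyond the axes. The 9 members below 0 at P1 and above 0 at P9 with a difference of at least 0.7 lie in the upper left quadrant, and the opposite quadrant holds 0 members with such a difference.

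The ages were compared over the 45 members measured on both arrays. The median difference of P9 minus P1 was 0.26, against −0.01 over all genes, and 31 of 45 were above 0. Members had the same sign at both ages in 57.8% of cases, against 74.3% of the 16647 genes measured on both arrays. Below 0 at P1 and above 0 at P9, by at least 0.7, were 9 of 45 members, or 20.0%, against 1.28% of all genes. These were Ccl2, Ccl3, Ccl7, Ccl8, Ccl12, Ccl20, Cxcl5, Cxcl16 and Cxcr6. In the other direction there were 0 of 45 members, against 0.925% of all genes. All but Ccl7 and Cxcl16 rest on 1 probe. Among genes with at least 2 probes on both arrays, the same pattern held for 2 of 12 members and 0.607% of 7083 genes. Of these 2, Ccl7 had probes of the same sign on each array, whereas those of Cxcl16 had opposite signs at P1.

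Several members with opposite signs at the ages lay together in the genome. In the gene order of RefSeq, Ccl2, Ccl7, Ccl11, Ccl12, Ccl8 and Ccl1 follow each other on chromosome 11 with no other protein-coding gene between them. All 6 were below 0 at P1, and 5 of them were above 0 at P9. The exception was the eotaxin Ccl11, which lies between Ccl7 and Ccl12 and was at −0.20 at P9. In the second cluster of chromosome 11, Ccl5, Ccl9 and Ccl6 had P9 values close to or below their P1 values, and only Ccl3 had a higher one, by 1.02. The receptor cluster on chromosome 9 held both the lowest receptors at P1, Ccr1 and Ccr2, and the high ones Xcr1 and Ccr9, so its members held values on both sides of 0.

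**Figure D4:**
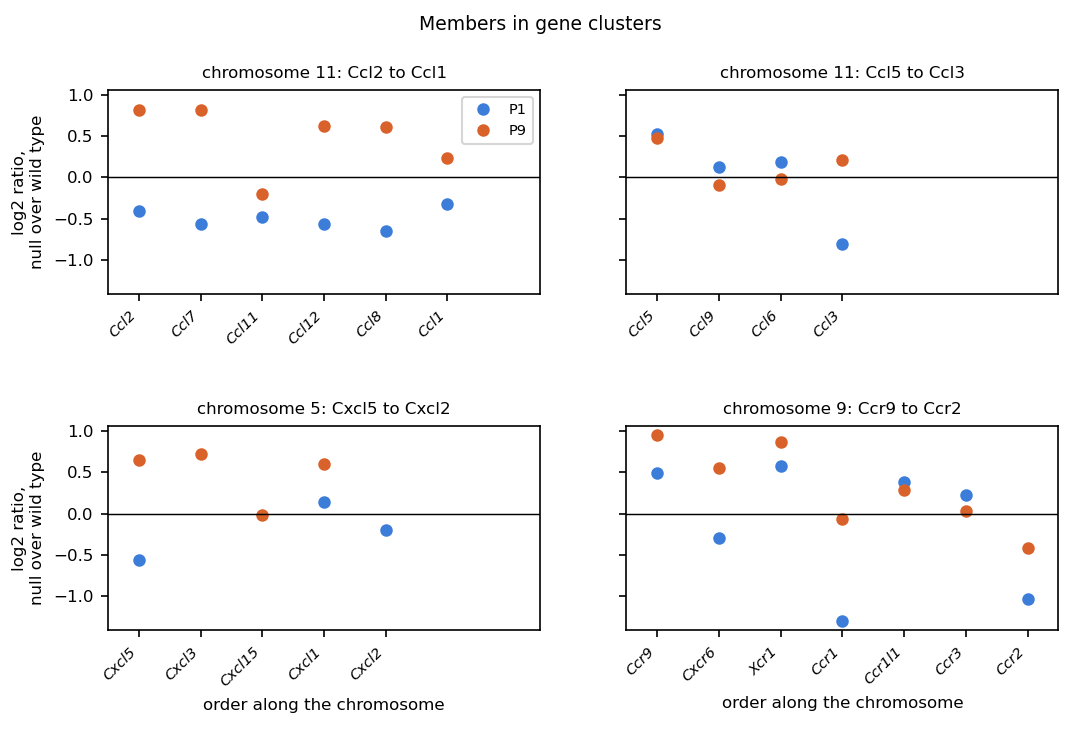
Log2 ratios (y axis, Mpzl3 null over wild type) of members in 4 gene clusters, in their order along the chromosome (x axis, not to scale). Blue points are P1 and orange points P9, and a missing point is a blank value. In the cluster from Ccl2 to Ccl1 every P1 point is below 0, and every P9 point but that of Ccl11 is above 0.

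Genes around the chemokine system were taken from lists that hold no member. Of 17 cytokines that induce chemokines, 13 had a value at P1 and 15 at P9, with medians of −0.23 and 0.10. At P1 4 were past 1.5-fold, all lower, namely Il6 at −0.77, Il4 at −0.75, Il1a at −0.69 and Tslp at −0.68. At P9 only Il1b was past 1.5-fold, at 1.05, after −0.46 at P1. Il6 was at 0.40 at P9. Of the 12 cytokines measured at both ages 8 were below 0 at P1 and above 0 at P9, as were 13 of 45 members and 11.6% of all genes. Tnf was at 0.35 at P1 and 0.33 at P9. The part of these cytokines in the ligand values was not tested.

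NF-κB feedback genes had medians of −0.04 at P1 and 0.12 at P9 over 9 of 10 genes, with Nfkbiz at −0.72 and 0.11 and Nfkb2 at 0.70 and 0.43. Atypical receptors, which bind chemokines without G protein signalling, and related genes had medians of 0.03 and 0.20 over 7 genes. Ackr1, which carries chemokines across venular endothelium, led them at 0.70 and 0.46. Genes of receptor signalling and migration had medians of 0.30 and 0.23 over 16 of 18 genes. In that list Was, an actin regulator of leukocytes, was past 2-fold at P9 at 1.08, after 0.57 at P1, and Elmo1, needed for cell migration through Rac, was at −0.13 and −0.67. Plcb3, a phospholipase downstream of G proteins, was at 0.64 and 0.53.

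Of the chemokines outside the symbol rule, Pf4 of platelets was at −0.60 at P1 and 0.01 at P9, and the list of 4 had medians of −0.34 and 0.03. Proteases and proteoglycans that cut or bind chemokines had medians of −0.04 and 0.13 over 8 of 9 genes. Dpp4, which trims several chemokines at the amino end, was at −0.61 and −0.32. None of these lists was past 1.5-fold by its median at either age.

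**Figure D5:**
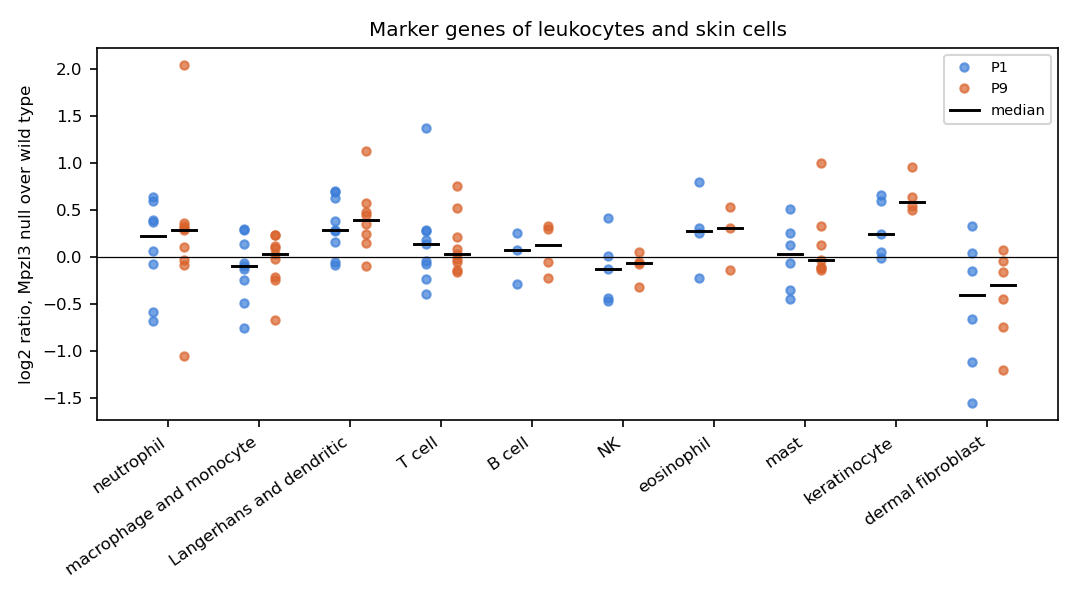
Log2 ratios (y axis, Mpzl3 null over wild type) of single marker genes of leukocytes, keratinocytes and dermal fibroblasts (x axis). Blue points are P1, orange points P9, and black bars the medians. The macrophage and monocyte medians are −0.09 at P1 and 0.03 at P9, and the neutrophil list reaches 2.04 at P9 through S100a9.

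The remaining leukocyte lists were those of B cells, natural killer cells and mast cells. The medians of B cell markers were 0.07 over 3 genes at P1 and 0.13 over 4 at P9, and natural killer cell markers had medians of −0.13 over 5 and −0.07 over 4. Mast cell markers had medians of 0.03 over 6 and −0.04 over 7. The mast cell gene Ms4a2 was at 1.00 at P9 and blank at P1. A ratio gives no level, so how strongly any marker or member was expressed in either channel is not known from these values.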

How the data were processed

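Null and wild-type skin RNA was hybridised together on 1 array per age, null in Cy5 and wild type in Cy3 per the labels. The authors deposited log ratios with no stated base, read here as log2. The background correction, dye normalization and filter behind blank cells (11.31% at P1, 4.71% at P9) were not given in the sources used here. Base 2 was inferred from the values, whose largest size, 4.898, would be 79067.9-fold in base 10, and natural logarithms remain possible. The labels' dyes set the direction, and how the columns were centred stays unknown (medians −0.007 at P1 and 0.005 at P9).

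Of 39212 rows, 31337 probes named 1 gene in the platform annotation. Symbols were updated through Entrez identifiers with RefSeq (GRCm38.p6) for 31210 of them and kept for 127, and 40 probes naming several genes were left out. There were 0 columns of unmapped samples. No test was run. Members and lists were chosen with earlier results of these data known. Each ligand and receptor was put in 1 group by its textbook role, apart from the receptor Ccr1l1, which had none (0.38 at P1, 0.29 at P9). Values at both ages are printed for members past 1.5-fold or with opposite signs at least 0.7 apart, for their ligands or receptors and for members whose probes differ by at least 0.7, and further members are named to complete their group. From the pathway lists genes past 1.5-fold are named, and some others to complete a group.

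The code behind the calls was checked on simulated data over 18855 genes. There, 184 of 184 genes changed by 2 log2 were recovered in the P1 layout and 190 of 190 in the P9 layout. The change put in was larger than any member's value, and the noise was set to the probe SD, without differences between animals. The check therefore does not show how reliable calls near 1.5-fold or 2-fold are. Python 3.11.15, numpy 2.4.6, pandas 2.3.3 and matplotlib 3.10.9 were used.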

Additional observations from a re-analysis of the deposited data

Results flagged for a closer look

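The ages gave opposite signs for 9 members, with differences of P9 minus P1 of 2.22 for Ccl20, 1.38 for Ccl7, 1.26 for Ccl8, 1.23 for Ccl2, 1.21 for Cxcl5, 1.19 for Ccl12, 1.02 for Ccl3, 0.86 for Cxcl16 and 0.84 for Cxcr6. They are listed because null was below wild type on the P1 array and above it on the P9 array. With 1 array per age the difference between the ages was not tested. The P1 value of Cxcl16 was −0.02, within the probe SD, so its sign at P1 is uncertain.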

How the results depend on the processing

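Counts past a fold depended on the processing more than the medians did. At 1.5-fold, 1 member was higher and 4 lower at P1, and 14 higher and 1 lower at P9. With arrays centred and scaled to 1 spread, 8 members passed 2-fold upward and 1 downward at P9, where 4.12% and 1.99% of all genes were, because P9 values were multiplied by 1.41. Read as natural logarithms, an alternative chosen after seeing the data, 1 was higher and 3 lower at P1 (5.47% and 4.46% of all genes), and 9 higher and 1 lower at P9 (4.58% and 1.93%). Over members with at least 2 probes, only Ccr2 (1 gene) was lower past 2-fold at P1 and only 2 members lay below 0 at P1 and above 0 at P9 by at least 0.7, since fewer genes enter. Taking the probe nearest 0 (chosen after seeing the data) left 1 lower member at P1, Ccr1, put Cx3cr1 at 0.41 at P9 and gave 8 members with opposite signs. With annotation symbols, probe medians, centring, scaling or near-identical copies left out, that count was 9. The member median at P1 lay between −0.10 and 0.03 and so had no settled sign, whereas at P9 it lay between 0.06 and 0.26 and the median difference of P9 minus P1 between 0.21 and 0.37. No paired analysis was possible because there is 1 array per age. Spot intensities were not used here, so signal over background is unknown and dim spots could not be told apart.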
